A study of Mus musculus with 9 samples.

Results

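The activin signalling genes Inhba, Inhbb, Fst, Fstl3, Acvr1b, Acvr2a and Acvr2b, and the maturation genes Lin28b, Hmga2 and Trim71, were followed across Prdm16 genotypes in the mouse cochlear duct at E14.5. These 10 genes were chosen by name from 54232 genes in the count files, and all 10 were found there. Bulk RNA was sequenced from 3 Prdm16 WT, 3 Prdm16 cGT/+ heterozygote (Het) and 3 Prdm16 cGT/cGT null embryos, with 1 library per embryo made from the ducts of both inner ears. The cGT allele is a gene trap in Prdm16, which encodes a zinc finger transcriptional regulator, and it is carried through the germ line, so that every cell of a null embryo holds it. Heterozygous parents were crossed, and the methods give FVB/NJ as the background and 3 littermates per genotype. Tissue of the whole dissected duct was measured, so fewer cells of a type and less RNA per cell cannot be told apart.

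Activins are secreted dimers of the inhibin beta chains encoded by Inhba and Inhbb. They bind the type II receptors ACVR2A and ACVR2B, which recruit the type I receptor ACVR1B and pass the signal to SMAD2 and SMAD3, while follistatin (Fst) and follistatin-like 3 (Fstl3) bind the ligands and block them. In the developing cochlea, activin is known to promote, and follistatin to delay, the differentiation of prosensory cells. Lin28b encodes an RNA-binding protein that blocks the maturation of let-7 microRNAs, and its RNA is in turn a let-7 target, as are those of Hmga2, which encodes an architectural chromatin protein, and Trim71, which encodes an RNA-binding ubiquitin ligase. LIN28B and HMGA2 are known for holding progenitor cells in an immature state.

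The let-7 family is shown first because its seed, the stretch of the microRNA that pairs with a target, links the 3 maturation genes by sequence. The mature sequences are those of RefSeq on GRCm38.p6, written 5′ to 3′ with the seed, bases 2 to 8, in capitals. They differ outside the seed only in a few letters.
mmu-let-7a-5p: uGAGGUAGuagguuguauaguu
mmu-let-7b-5p: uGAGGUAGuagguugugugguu
mmu-let-7g-5p: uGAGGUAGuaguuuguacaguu
mmu-miR-98-5p: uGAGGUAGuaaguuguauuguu
The letters that pair with this seed are CTACCTC, and they were searched on the sense strand in the longest annotated 3′ UTR of each gene (GENCODE M21, mm10). Lin28b held 4 matches in a UTR of 4445 bases, Hmga2 held 4 in 3014 bases, and Trim71 held 4 in 5512 bases. Of 21014 genes with a 3′ UTR, 1898 (9.03%) held at least 1 match and 32 (0.152%) held at least 3. Among UTRs within 20% of the same length, the share with a match was 24.2% for Lin28b, 15.5% for Hmga2 and 29.5% for Trim71. The first match of each of these genes is given with the match in capitals, and all 3 genes lie on the minus strand.
Lin28b (chr10:45381021-45381042): ccgggcgggaagtCTACCTCat
Hmga2 (chr10:120364223-120364244): cgacattcaatttCTACCTCag
Trim71 (chr9:114512471-114512492): cattgcctaagtcCTACCTCag
Of the 7 activin pathway genes, Acvr1b held 1 match and the other 6 held none. The 11 Mirlet7 precursor genes in the files had 0 counts in all 9 libraries. These were libraries of polyadenylated RNA, so the level of mature let-7 was not measured.

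Total counts per library ranged from 24095322 to 30819118. The Prdm16 count was 5030 to 6076 in WT, 3404 to 3860 in Het and 574 to 654 in null libraries, which matched each label. Markers of Kölliker's organ, the prosensory domain, the outer sulcus and the roof, 10 genes each, were all detected above 3 counts. The summed level of 10 mesenchyme markers differed between libraries, from 114 to 1079 CPM (counts scaled to a common library size) in WT, 53.2 to 101 in Het and 37.0 to 1475 in null. It was high in WT 1, WT 2 and Null 3, as were the 5 endothelial markers (66.0 to 80.6 CPM in WT 1 and WT 2, 45.8 in Null 3, and 5.55 or less elsewhere). Kölliker's organ markers summed to 3900 to 4780 CPM in WT, 3727 to 4637 in Het and 2167 to 2469 in null. Roof markers summed to 8420 to 9863 CPM in WT, 10071 to 10615 in Het and 11289 to 14741 in null, prosensory markers to 1261 to 1356, 1476 to 1507 and 1403 to 1750, and outer sulcus markers to 2305 to 2507, 2378 to 2744 and 2525 to 3229. Blood markers were lower (67.5 to 191 CPM in WT, 25.1 to 46.7 in Het) and glia markers higher (1475 to 1572 and 1624 to 1697) in every Het than in every WT library, while hair cell markers overlapped (129 to 185 and 113 to 140). The part of these shifts in the values of the 10 genes was not tested. Null 2 stood apart in another way: relative to the mean of 9 libraries, its median log2 deviation was 0.199 for 3316 genes with exons under 2000 bases and -0.163 for 4671 genes with exons over 6000 bases. In the other 8 libraries these medians lay between -0.0380 and 0.0350.

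**Figure D1:**
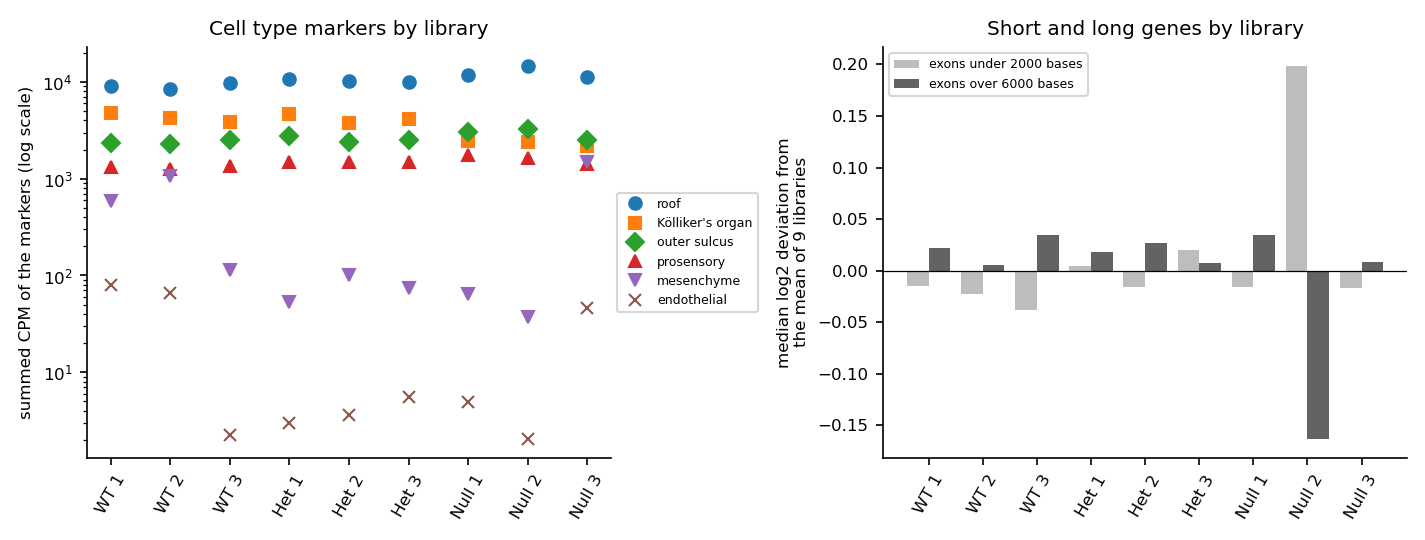
Left, summed CPM of marker lists in each of the 9 libraries on a log scale, where the mesenchyme and endothelial symbols are high in WT 1, WT 2 and Null 3. Right, median log2 deviation of short and long genes in each library, where Null 2 is the only library with bars beyond 0.1, at 0.199 and -0.163.

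Levels between genes were compared per length, as TPM (counts per base of exon, scaled to a common total). In WT ducts Hmga2 was the highest of the 10 at 321 ± 14.4 TPM (SD, n = 3 embryos, as for every mean here), followed by Fst at 170 ± 12.4 TPM. The receptors came next, with Acvr1b at 90.3 ± 1.88, Acvr2a at 86.2 ± 6.46 and Acvr2b at 54.4 ± 2.47 TPM, and the ranges of Acvr1b and Acvr2a overlapped. Lin28b (18.9 ± 1.28 TPM) and Inhba (16.1 ± 2.51 TPM) overlapped too, and Trim71 lay below them at 9.67 ± 1.93 TPM. Fstl3 (0.710 ± 0.169 TPM) and Inhbb (0.691 ± 0.392 TPM) were near the limit of these libraries, with 5 to 19 and 9 to 44 counts.

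To ask whether loss of Prdm16 altered these genes, each pair of genotypes was compared on its 6 libraries with edgeR's quasi-likelihood test, and a gene was called at a Benjamini-Hochberg adjusted p under 0.05 with an absolute log2 fold change over 0.5. All 10 genes passed the filter on low counts in the 3 comparisons, and 0 of 10 were called in any of them. Over all tested genes, 1.71% were called between null and WT, 0.151% between Het and WT and 0.615% between null and Het. With DESeq2 and with limma-voom the count was also 0 of 10 in each comparison. Between Het and WT, though, Fst, Acvr2b, Lin28b and Hmga2 had a DESeq2 adjusted p under 0.05 (0.0497, 0.0352, 0.00669 and 0.0405), at folds under 0.5. At an unadjusted p under 0.05, null and WT differed in 1 of the 10 (Acvr2a, against 12.2% of all genes). By the same measure Het and WT differed in 5 of the 10, all higher in Het (Fst, Acvr1b, Acvr2b, Lin28b and Hmga2, against 5.8% of all genes in that direction and 13.1% in either), and null and Het in 2, both lower in null (Acvr2a and Lin28b, against 5.25% and 11.4%).

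**Figure D2:**
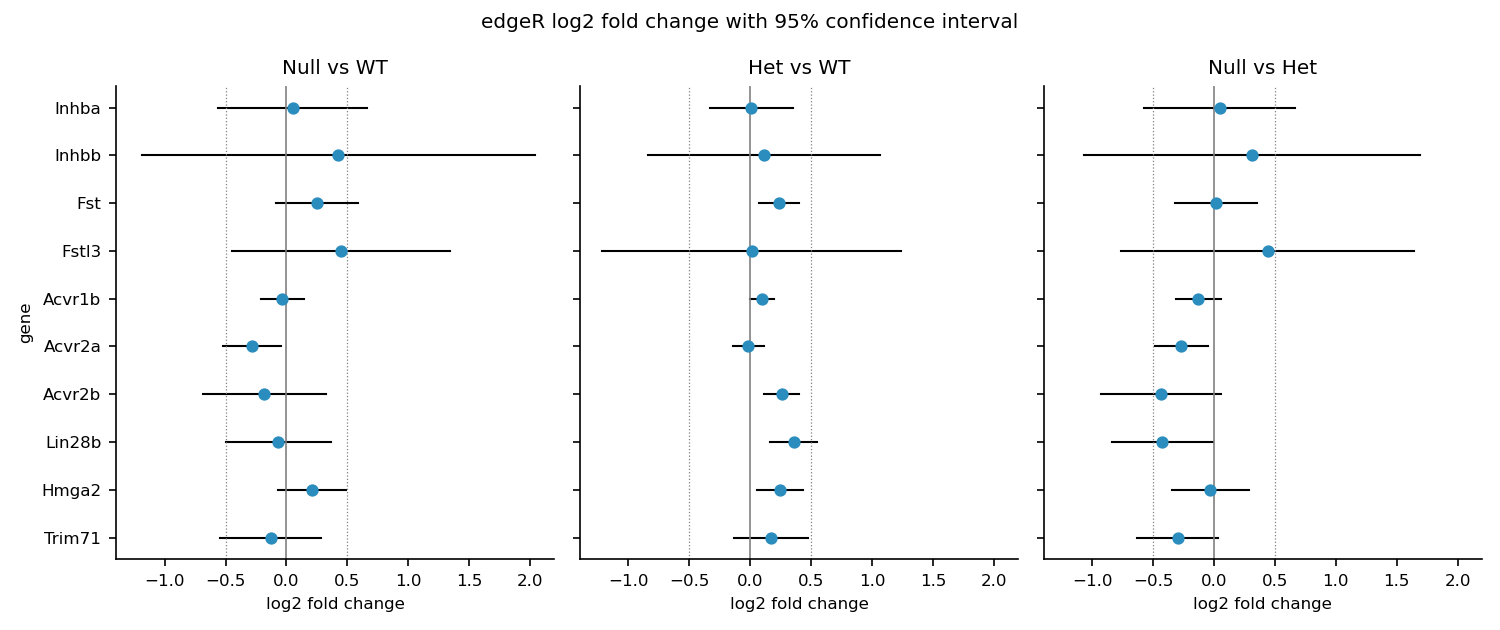
Log2 fold change (points) and 95% confidence interval (lines) of each gene from edgeR in the 3 comparisons, 3 embryos per genotype, with dotted lines at the fold threshold of 0.5. No gene was called, and the intervals of Inhbb and Fstl3 are the widest.

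The median log2 fold change of the 10 genes was 0.01 between null and WT, with 5 of 10 positive, as was the median of all genes (0.0097). It was -0.00377 with the mesenchyme covariate and -0.11 in the 6 libraries with the least mesenchyme RNA, with 5 of 10 positive in both. Between Het and WT the median of the 10 was 0.14, with 9 of 10 positive, where the median of all genes was 0.0000294 and the upper quartile 0.107. Mesenchyme markers were lower in every Het than in every WT library, and with the mesenchyme covariate the Het median was 0.07, with 6 of 10 positive, while in the 6 libraries with the least of that RNA it was 0.12, also with 6 of 10 positive. Between null and Het the median of the 10 was -0.08, with 4 of 10 positive, beside 0.0119 for all genes. It was -0.17 with the covariate and -0.12 in the 6 libraries, with 3 of 10 positive in both. Each pair of comparisons shares the libraries of a genotype, so the 3 medians are not independent.

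**Figure D3:**
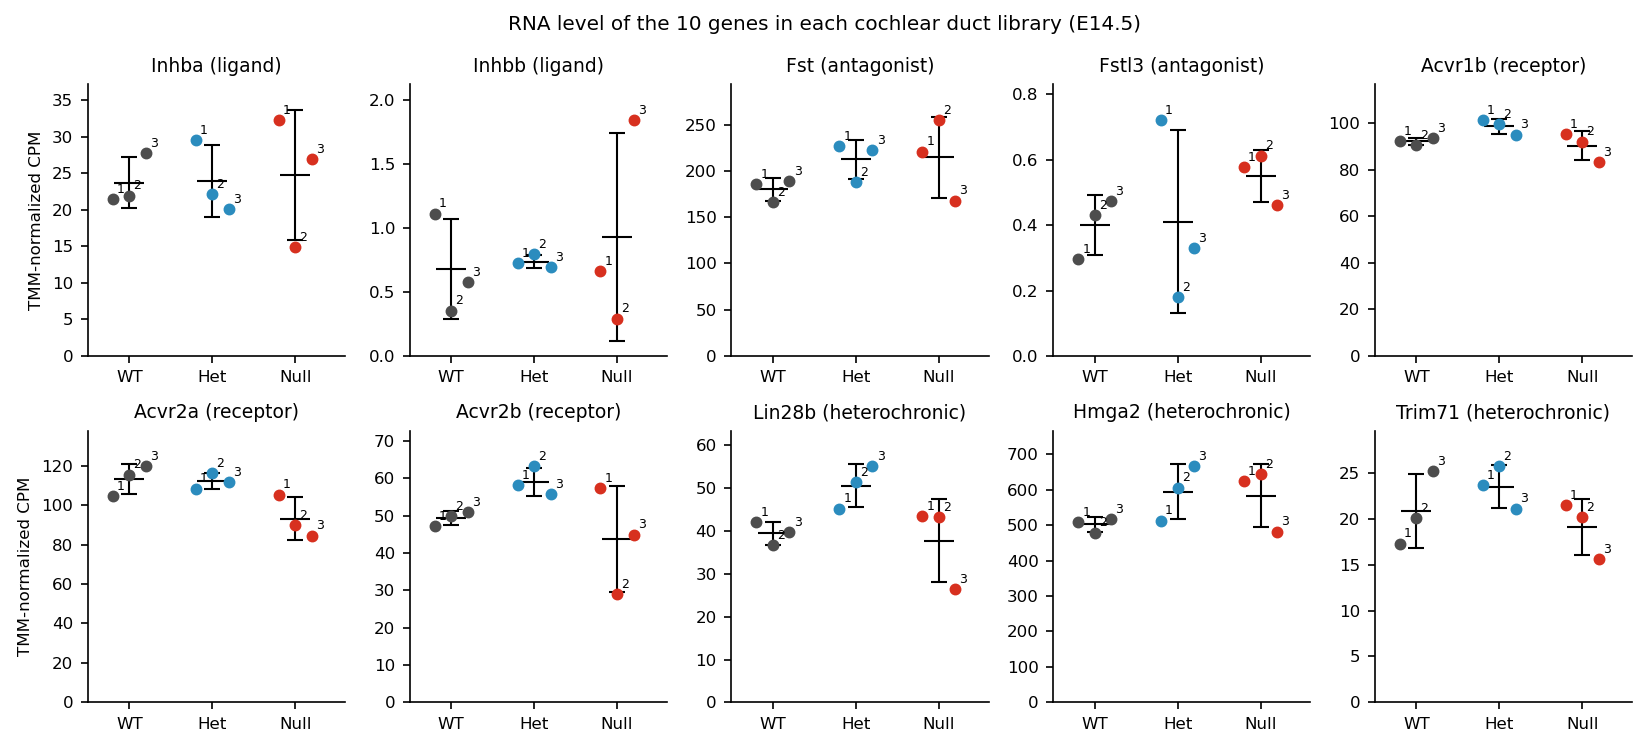
CPM after TMM normalization of each gene in every library, by genotype, with embryo numbers beside the points and bars for the mean and SD of 3 embryos. Lin28b and Acvr2b are higher in each Het embryo than in any WT embryo, and Null 2 is lowest for Inhba and Acvr2b.

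Of the ligands, Inhba (ENSMUSG00000041324, chr13:16011851-16031621, plus strand) encodes the beta A chain of activin A. It was at 21.5, 21.9 and 27.8 CPM in WT 1, 2 and 3, at 29.5, 22.2 and 20.1 CPM in the Het embryos and at 32.3, 14.9 and 26.9 CPM in the null embryos. Null embryos held both the highest and the lowest value of the series, and all 3 groups overlapped. The log2 fold change was 0.05 between null and WT (95% interval -0.56 to 0.66, edgeR adjusted p = 0.955) and 0.01 between Het and WT (-0.33 to 0.35, edgeR adjusted p = 0.987). The lowest value came from Null 2, the library whose long genes were low, and the exons of Inhba total 6390 bases. The part of that pattern in the value was not tested.

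Inhbb (ENSMUSG00000037035, chr1:119415465-119422248, minus strand) encodes the beta B chain. It had 30, 9 and 17 counts in WT, 18, 22 and 19 in Het and 16, 9 and 44 in null libraries. The highest count was in Null 3 and the lowest in WT 2 and Null 2, and the groups overlapped. In null against WT its log2 fold change was 0.43 (95% interval -1.18 to 2.04, edgeR adjusted p = 0.848). It was 0.59 with the mesenchyme covariate and took the other sign, -0.30, in the 6 libraries with the least mesenchyme RNA. It was 0.97 without WT 1, 0.13 without WT 2, 0.88 without Null 2 and, with the other sign, -0.54 without Null 3.

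Of the antagonists, Fst (ENSMUSG00000021765, chr13:114452290-114458951, minus strand), the gene of follistatin, was at 185, 166 and 189 CPM in WT, 227, 188 and 223 CPM in Het and 221, 255 and 168 CPM in null embryos. Heterozygotes 1 and 3 and null embryos 1 and 2 lay above every WT embryo, while Het 2 and Null 3 lay inside the WT range. The mean was 180 ± 12.4 CPM in WT, 213 ± 21.2 in Het and 215 ± 44.0 in null. Neither difference passed the test: the log2 fold change was 0.24 in Het (SE 0.0750, 95% interval 0.07 to 0.40, edgeR adjusted p = 0.202) and 0.25 in null (SE 0.145, -0.09 to 0.58, edgeR adjusted p = 0.560). With a covariate for mesenchyme RNA these values were 0.07 and 0.09. In the 6 libraries with the least mesenchyme RNA, where WT is 1 library, they were 0.17 and 0.34. The null value was 0.11 without Null 2 and 0.40 without Null 3 (edgeR adjusted p = 0.0884). An antisense gene, Gm47040, shares 115 bases of Fst exons and had 99 counts or fewer, against 4012 or more for Fst.

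Fstl3 (ENSMUSG00000020325, chr10:79777272-79782630, plus strand) had 8, 11 and 14 counts in WT, 18, 5 and 9 in Het and 14, 19 and 11 in null libraries. The log2 fold change of null over WT was 0.45 with an interval of -0.45 to 1.35 (edgeR adjusted p = 0.704), and 0.28 without WT 1. Exons of Prss57 on the other strand overlap 47.3% of its exon length, and Prss57 itself had 4 counts or fewer. Reads of overlapping genes could not be told apart here, since the use of strand in counting is not given in the sources used here.

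The type I receptor gene Acvr1b (ENSMUSG00000000532, chr15:101174067-101213684, plus strand) had the lowest coefficient of variation of the 10 in each genotype. It was at 92.2, 90.7 and 93.4 CPM in WT, 101, 99.5 and 95 CPM in Het and 95.4, 92.1 and 83.3 CPM in null embryos. All Het values lay above all WT values, by a log2 fold change of 0.10 (SE 0.0433, 95% interval 0.0007 to 0.19, edgeR adjusted p = 0.376). The interval between null and WT, -0.21 to 0.14, did not reach the fold threshold of 0.5 in either direction.

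Acvr2a (ENSMUSG00000052155, chr2:48814109-48903269, plus strand), the gene of a type II receptor, was the only member with an unadjusted p under 0.05 between null and WT. WT embryos were at 105, 115 and 120 CPM and Het embryos at 108, 116 and 112 CPM. Null embryos were at 105, 89.7 and 84.4 CPM, so that Null 2 and Null 3 lay below every other embryo and Null 1 lay at the level of WT 1. The log2 fold change was -0.29 against WT (SE 0.103, 95% interval -0.52 to -0.05, edgeR adjusted p = 0.300) and -0.27 against Het (SE 0.0955, -0.49 to -0.05, edgeR adjusted p = 0.357). It stayed between -0.38 and -0.22 against WT when each library was left out in turn, and was -0.34 with the mesenchyme covariate. Orc4 on the other strand shares 7.84% of the exon length of Acvr2a and had 1240 to 1898 counts. Part of the Acvr2a counts may be Orc4 reads, or reads of the shared part may be missing from both.

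Acvr2b (ENSMUSG00000061393, chr9:119402118-119434995, plus strand) encodes the other type II receptor. It was at 47.3, 49.8 and 51.0 CPM in WT and at 58.2, 63.2 and 55.8 CPM in Het, with no overlap. In null embryos it spread from 57.4 in Null 1 and 44.9 in Null 3 down to 28.9 CPM in Null 2. The log2 fold change was 0.26 in Het against WT (SE 0.0636, 95% interval 0.12 to 0.40, edgeR adjusted p = 0.109) and -0.18 in null against WT (SE 0.218, -0.68 to 0.32, edgeR adjusted p = 0.790). The null value was -0.42 without Null 1 and took the other sign, 0.05, without Null 2. Between null and Het it was -0.43 (SE 0.214, edgeR adjusted p = 0.483), and ranged from -0.68 without Null 1 to -0.20 without Null 2.

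Lin28b (ENSMUSG00000063804, chr10:45376620-45486395, minus strand) had the lowest adjusted p of the 10 genes between Het and WT. Its level was 42.0, 36.7 and 39.8 CPM in WT, 45.2, 51.5 and 55.1 CPM in Het and 43.5, 43.3 and 26.5 CPM in null embryos. Every Het embryo was above every WT and null embryo, and Null 3 was the lowest of the series. Between Het and WT the log2 fold change was 0.36 (SE 0.0852, 95% interval 0.17 to 0.55, edgeR adjusted p = 0.0973), and no setting took it past the fold threshold of 0.5. Its adjusted p depended on the setting, from 3.69e-04 without the filter on low counts and 0.00669 with DESeq2 to 0.804 when all 9 libraries shared a fit and 1.00 in the 6 libraries with the least mesenchyme RNA, where WT is 1 library. Between null and WT the log2 fold change was -0.07 (SE 0.186, -0.50 to 0.36, edgeR adjusted p = 0.912), 0.13 without Null 3 and -0.27 with the mesenchyme covariate. Against Het it was -0.42 (SE 0.182, -0.84 to -0.01, edgeR adjusted p = 0.437), and -0.22 without Null 3, a library with much mesenchyme RNA.

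Hmga2 (ENSMUSG00000056758, chr10:120361275-120476469, minus strand) was at 509, 479 and 518 CPM in WT, 512, 606 and 665 CPM in Het and 624, 644 and 481 CPM in null embryos. Het 2, Het 3, Null 1 and Null 2 lay above the WT range, and Het 1 and Null 3 lay inside it. The log2 fold change was 0.24 in Het (SE 0.0847, 95% interval 0.05 to 0.43, edgeR adjusted p = 0.243) and 0.21 in null (SE 0.121, -0.07 to 0.49, edgeR adjusted p = 0.545). The Het value was 0.16 without Het 3 and 0.34 without Het 1. The null value was 0.34 without Null 3 (edgeR adjusted p = 0.0987), 0.14 without Null 2 and 0.10 with the mesenchyme covariate. In the 6 libraries with the least mesenchyme RNA, where WT is 1 library, the null value was 0.30. The Het value was 0.22 with the covariate and 0.20 in those 6 libraries.

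Trim71 (ENSMUSG00000079259, chr9:114507133-114564369, minus strand) was at 17.3, 20.02 and 25.1 CPM in WT, 23.7, 25.7 and 21.1 CPM in Het and 21.4, 20.2 and 15.6 CPM in null embryos. The groups overlapped in all 3 comparisons. Its log2 fold change was -0.13 between null and WT (95% interval -0.55 to 0.29, edgeR adjusted p = 0.818), -0.24 without WT 1, -0.22 without Null 1, -0.00316 without Null 3 and, with the other sign, 0.03 without WT 3, and -0.27 with the mesenchyme covariate. Among all 10 genes, the groups did not overlap in 0 cases between null and WT (19.0% of all genes), in 3 between Het and WT (Acvr1b, Acvr2b and Lin28b, all higher in Het, against 8.97% of all genes in that direction and 18.0% in either) and in 2 between null and Het (Acvr2a and Lin28b, both lower in null, against 9.09% and 18.2%).

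The balance of paired genes was then measured within each library, as a log2 ratio of reads per base of exon, which does not use the library size. Lin28b to Hmga2 was -4.02, -4.13 and -4.12 in WT, -3.92, -3.98 and -4.01 in Het and -4.26, -4.31 and -4.60 in null embryos. The order was Het, WT, null with no overlap between any groups, although the lowest Het and the highest WT value differed by less than 0.01. Null embryos were lower than WT by a difference of -0.30 and lower than Het by -0.42, and Het embryos differed from WT by 0.12. Each comparison had an exact two-sided permutation p of 0.1, the smallest that 3 against 3 allows, and 0.225 after adjustment over 9 tests. Among the ratios of all tested genes to Hmga2, 16.1% were lower in every null than in every WT embryo, 1.02% were higher in every Het than in every WT embryo, and 3.54% were lower in every null than in every Het embryo. Without Null 3, which had the lowest ratio, the differences from WT and Het were -0.20 and -0.32.

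**Figure D4:**
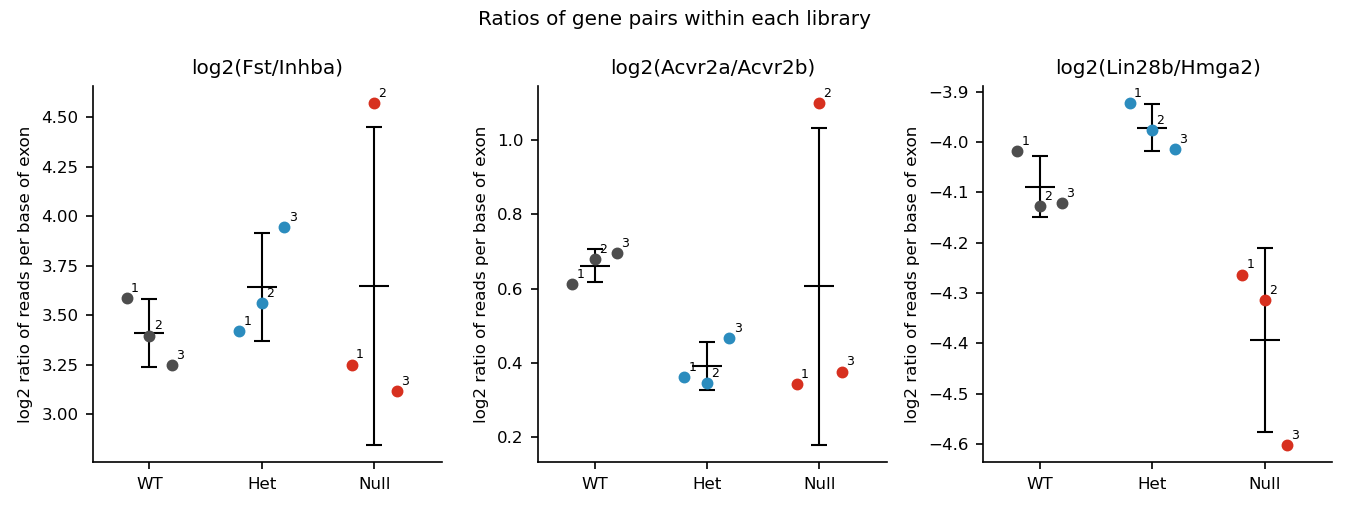
Log2 ratio of reads per base of exon for 3 gene pairs in every library, by genotype, with embryo numbers beside the points and bars for the mean and SD of 3 embryos. Lin28b to Hmga2 is lowest in the 3 null embryos (-4.26 to -4.60), and Null 2 stands apart for Fst to Inhba and for Acvr2a to Acvr2b. The vertical axes do not start at 0.

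Follistatin RNA exceeded Inhba RNA per length in every library. The ratio of Fst to Inhba was 9.49-fold to 12.02-fold in WT, 10.7-fold to 15.4-fold in Het and 8.68, 9.53 and 23.8-fold in Null 3, Null 1 and Null 2. Null 3 was the lowest library and Null 2 the highest, and Null 2 lay farthest from the next library. The log2 difference between null and WT was 0.24 (exact permutation p = 0.9) and took the other sign, -0.23, without Null 2.

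For the type II receptors, the log2 ratio of Acvr2a to Acvr2b was 0.61, 0.68 and 0.70 in WT and 0.36, 0.35 and 0.47 in Het. The Het embryos were lower without overlap, by -0.27 (exact permutation p = 0.1, the smallest possible). Of all ratios to Acvr2b, 48.3% were lower in every Het than in every WT embryo, so this pattern was common to many genes. Null 1 and Null 3 were at 0.34 and 0.38, and Null 2 at 1.10. Null and WT overlapped (difference -0.06, exact permutation p = 1), and without Null 2 the difference was -0.30.

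Other genes of the same pathways were taken from 6 lists. Of 68 genes, 56 were tested between null and WT, and 1 was called (against 1.71% of all genes), Cdk6, the gene of a cyclin-dependent kinase that drives entry into S phase and is listed as a let-7 target. Cdk6 was at 20.8, 23.4 and 21.7 CPM in WT, 22.3, 24.3 and 21.9 CPM in Het and 35.6, 32.6 and 38.9 CPM in null embryos. All null values lay well above all others. Its log2 fold change was 0.69 between null and WT (SE 0.108, edgeR adjusted p = 0.0231), 0.64 between null and Het (SE 0.105, edgeR adjusted p = 0.0449) and 0.06 between Het and WT (SE 0.0851, edgeR adjusted p = 0.839). The fold between null and WT stayed between 0.63 and 0.76 when each library was left out, but the adjusted p rose to 0.139 without WT 1, 0.101 without WT 2, 0.102 without WT 3, 0.0750 without Null 1 and 0.0987 in the 6 libraries with the least mesenchyme RNA. Against Het it rose to between 0.0895 and 0.292 without Null 1, Het 1, Het 2 or Het 3. Its annotated 3′ UTR of 10217 bases held 0 matches to CTACCTC.

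**Figure D5:**
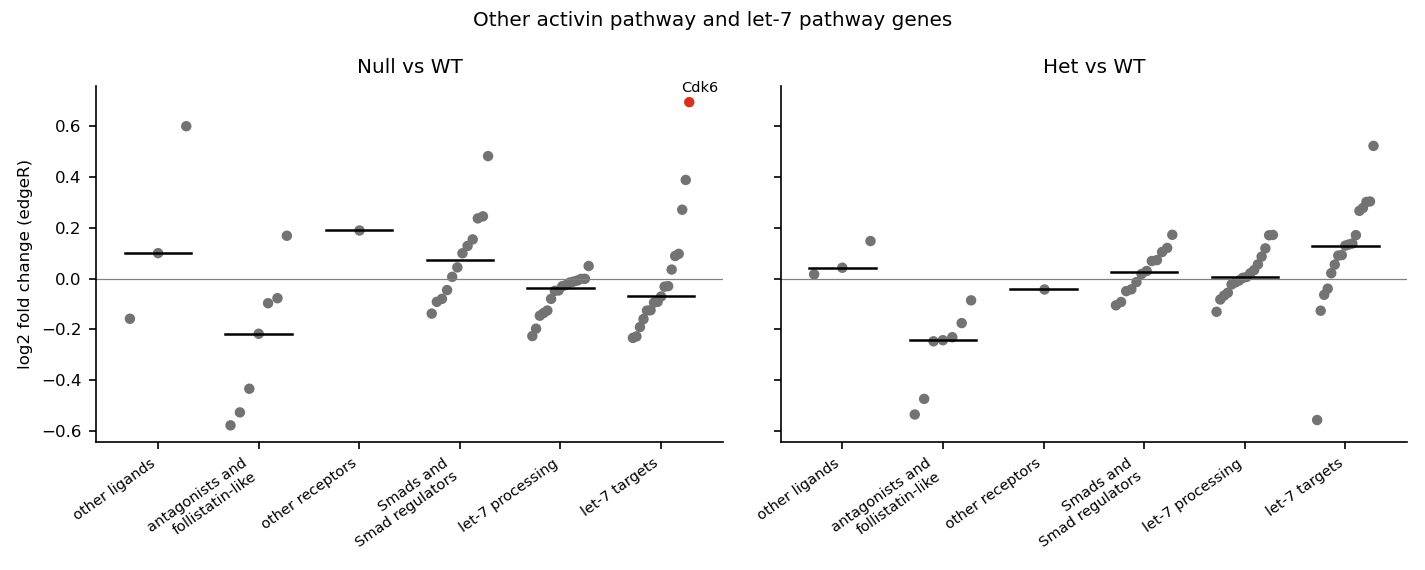
Log2 fold change (edgeR) of the tested genes of 6 lists in null against WT and in Het against WT, with a line at the median of each list. Cdk6, in red, is the only gene called, at 0.69 between null and WT.

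Among the other ligands, 3 of 8 were tested and 0 were called. Gdf11, which encodes a ligand of the same type II receptors, was at 88.2 ± 3.43 CPM in WT and 79.3 ± 2.32 in null (log2 fold change -0.16, edgeR adjusted p = 0.408), and Mstn, the myostatin gene, was under 1 CPM (0.60, edgeR adjusted p = 0.654). Of 11 antagonists and follistatin-like genes, 7 were tested and edgeR called 0, while DESeq2 called Fstl1 between Het and WT. Their median log2 fold change was -0.22 between null and WT, with 1 of 7 positive, and -0.24 between Het and WT, with 0 of 7 positive, where the medians of all genes were 0.0097 and 0.0000294. With the mesenchyme covariate these medians were -0.23, with 2 of 7 positive, and -0.15, with 0 of 7 positive. Wfikkn2, which encodes a secreted inhibitor of GDF11 and myostatin, was at 76.6 ± 2.83 CPM in WT and 66.1 ± 4.41 in null (-0.22, edgeR adjusted p = 0.303). Fstl1, a follistatin-like gene, was at 851 ± 129 CPM in WT, 588 ± 73.3 in Het and 572 ± 262 in null. Null differed from WT by a log2 fold of -0.58 (edgeR adjusted p = 0.478) and, without Null 3, of -1.01 (edgeR adjusted p = 0.0120). It was -0.38 without Null 1 (edgeR adjusted p = 0.541) and -0.41 without Null 2 (edgeR adjusted p = 0.696). Null 3 is among the libraries with the most mesenchyme RNA. With the mesenchyme covariate the Fstl1 values were -0.38 between null and WT and -0.30 between Het and WT (-0.53 without the covariate), and in the 6 libraries with the least of that RNA they were -0.74 and -0.26.

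Of 2 other receptor genes only Acvr1, which encodes a type I receptor shared with BMP ligands, was tested, at 48.5 ± 3.93 CPM in WT and 55.5 ± 4.43 in null (log2 fold change 0.19, edgeR adjusted p = 0.507). Of 13 Smads and Smad regulators, 12 were tested and 0 called, with a median of 0.07 between null and WT and 8 of 12 positive. That median was 0.13 with the mesenchyme covariate, also with 8 of 12 positive. It took the other sign, -0.05, with 5 of 12 positive, in the 6 libraries with the least mesenchyme RNA, where WT is 1 library. At an unadjusted p under 0.05, null and WT differed in 1 of 3 ligands, 1 of 7 antagonists, 1 of 12 Smad genes, 0 of 16 genes of let-7 processing and 3 of 17 let-7 targets, against 12.2% of all genes, and DESeq2 and limma-voom called none of these except Cdk6. Pmepa1 and Smad7, both induced by and inhibitory to the pathway, gave 0.48 (edgeR adjusted p = 0.347) and 0.24 (edgeR adjusted p = 0.455). Pmepa1 was at 20.02 ± 1.35 CPM in WT and 28.1 ± 7.63 in null.

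The genes of let-7 processing gave a median of -0.04 between null and WT, with 1 of 16 tested genes positive and 0 called, beside 0.0097 for all genes. The lowest p-values were those of Tut4, which adds uridines to the let-7 precursor (-0.23, edgeR adjusted p = 0.518), and Ago1, which encodes an Argonaute protein (-0.14, edgeR adjusted p = 0.651). With the mesenchyme covariate the median was -0.02, with 4 of 16 positive. In the 6 libraries with the least mesenchyme RNA, where WT is 1 library, it was -0.06, with 7 of 17 positive. Lin28a, the paralogue of Lin28b, was near the limit of these libraries, with 85 counts over all 9. It was at 0.171 ± 0.0240 CPM in WT, 0.420 ± 0.241 in Het and 0.468 ± 0.143 in null. Only null and Het were tested (0.15, edgeR adjusted p = 0.927). Of 17 other let-7 target genes, all were tested. Between null and WT their median was -0.07, with 6 of 17 positive, and next to Cdk6 the lowest p was that of Cdc25a, a cell cycle phosphatase gene (-0.23, edgeR adjusted p = 0.317). The null median was -0.04 with the mesenchyme covariate, with 6 of 17 positive. It was -0.04 too in the 6 libraries with the least mesenchyme RNA, with 7 of 17 positive. Between Het and WT the median was 0.13, with 13 of 17 positive. Of the 17, 6 had an unadjusted p under 0.05 (against 13.1% of all genes in either direction). Among these 6, Ccnd2 was lower in Het (log2 fold change -0.56) and the others were higher (against 5.8% of all genes in that direction). Between Het and WT 0 were called by edgeR, while DESeq2 called Prtg among 298 genes in all. With the mesenchyme covariate that median was 0.11, with 14 of 17 positive, and the part of the roof and prosensory markers, higher in every Het than in every WT library, was not tested. Igf2bp1, which encodes an RNA-binding protein and whose UTR held 4 matches to CTACCTC, had an adjusted p under 0.05 there at a fold below the threshold (0.28, SE 0.0445, edgeR adjusted p = 0.0498), and was chosen after its values were seen. That adjusted p rose to between 0.0680 and 0.226 without WT 1, WT 2, Het 1, Het 2 or Het 3, and was 0.00758 without WT 3. It was also above 0.05 with RLE normalization (0.0504), limma-voom (0.0648), all 9 libraries together (0.686) and the mesenchyme covariate (0.451). It stayed under 0.05 with DESeq2 (2.64e-04), without the filter on low counts (1.55e-05) and with library size normalization (0.0463). The log2 fold change was 0.27 with the covariate and 0.25 in the 6 libraries with the least mesenchyme RNA, where WT is 1 library. With a library left out it was 0.24 to 0.31.

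Finally, the genes with the most similar profile over the 9 libraries were found by Pearson's r of log2 CPM among 14813 genes at 1 CPM or more on average. Among the nearest to Inhba were D430041D05Rik (r = 0.968) and Dop1b (0.958). The nearest to Fst were 2500004C02Rik (0.969), Msi1 (0.954) and Cyb5rl (0.951), and those to Lin28b were Fam187b (0.961), Srpk1 (0.961) and B3galnt2 (0.946). The points share libraries, depth, mesenchyme RNA and the length pattern of Null 2, and 26, 45 and 22 genes had an r over 0.9 with Inhba, Fst and Lin28b.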

How the data were processed

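RNA of E14.5 cochlear ducts was sequenced in 9 embryos. The authors made mRNA libraries, sequenced single reads and aligned them to mm10 with STAR. Their processing notes also list cutadapt 1.13, HTSeq 0.6.1p1 and DESeq2 without roles, while the methods name Cufflinks. The strand setting and annotation release are not given in the sources used here. The deposited values are raw counts per Ensembl gene, without normalization. Mitochondrial genes hold 0 counts, so mitochondrial RNA could not be checked. Reads shared by overlapping genes may be counted for either gene or for neither.

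Samples were grouped by labelled genotype. Positions, lengths and UTRs came from GENCODE M21, which holds 54165 of the 54232 genes. Each pair of genotypes was tested with edgeR 4.0.16 in R 4.3.3 (TMM, filterByExpr with a minimum count of 10, quasi-likelihood test, Benjamini-Hochberg over all tested genes). Log2 CPM used a prior count of 2 and ratios one of 0.5. With 3 embryos per genotype and 24095322 to 30819118 counts per library, 3 counts were taken as the floor. On simulated counts of null against WT, 51 of 95 genes changed 2-fold and 98 of 98 changed 4-fold were recovered, with 8 false calls among 16914 genes. Alternatives were RLE or library size normalization, no filter, DESeq2 1.42.0, limma-voom (limma 3.58.1), 1 fit over the 9 libraries, a block for the replicate number, no fold threshold, another prior count for ratios, and leaving out each library. A covariate for mesenchyme RNA, and the 6 libraries with the least of it, were added after seeing the data.

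The members and lists were chosen with earlier results of these data known. Genes named are the 10 members, Prdm16, of each list every called gene and the 2 with the lowest p between null and WT, the let-7 genes, and the 3 nearest in profile to Inhba, Fst and Lin28b, of which 1 is not reported here. Lin28a and Igf2bp1 were added after their values were seen.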

Additional observations from a re-analysis of the deposited data

How the results depend on the processing

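The count of 0 of 10 genes called held in all 3 comparisons under every alternative run. Of 450 refitted fold changes, 389 kept their sign and their side of the adjusted p threshold of 0.05, 52 changed sign and 9 passed that threshold, all 9 between Het and WT at folds under 0.5. Those were Fst, Acvr2b, Lin28b and Hmga2 without the filter on low counts (edgeR adjusted p 4.36e-04, 0.0116, 3.69e-04 and 0.00148) and with DESeq2 (0.0497, 0.0352, 0.00669 and 0.0405), and Fst with the replicate block (0.0438). The cause of the sign changes was not tested. Inhbb and Fstl3 had few counts, and 3 embryos per genotype limit all p-values.

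The replicate numbers did not pair the samples: 9 same-numbered pairs had a mean correlation of 0.00666 (-0.264 to 0.235, 3 over 0.1). With the block, Inhba was -0.00691 between null and WT and -0.00445 between null and Het. Fstl3 was -0.0713 between Het and WT, and Fst was -0.00239 between null and Het. Igf2bp1 kept an edgeR adjusted p under 0.05 between Het and WT (0.0320). The block also moved the count of called genes over all genes from 293 to 133, 26 to 197 and 105 to 52 for null against WT, Het against WT and null against Het, and the pathway genes called from 1 to 0, 0 to 2 and 1 to 0, with Cdk6 lost (edgeR adjusted p = 0.111 against WT and 0.138 against Het, at log2 fold changes of 0.69 and 0.64) and Fstl1 and Ccnd2 gained.

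With limma-voom, Inhba was -0.0444, -0.0137 and -0.0354 in null against WT, Het against WT and null against Het, Fstl3 was -0.18 in Het against WT, and in null against Het Inhbb was -0.13 and Fst -0.00243. With the mesenchyme covariate, Het against WT gave Inhba -0.33, Fstl3 -0.54 and Trim71 -0.0881, and null against Het gave Inhba -0.0253, Inhbb -0.46 and Hmga2 0.0305. In the 6 libraries with the least mesenchyme RNA, where WT is 1 library assumed to vary like the others, null against WT gave Inhba -0.24, Inhbb -0.30, Acvr1b 0.0110 and Lin28b 0.13, Het against WT gave Inhba -0.21, Fstl3 -0.22 and Trim71 -0.10, and null against Het gave Inhba -0.0212, Inhbb -0.65 and Hmga2 0.0973.

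When each library was left out, null against WT ranged from -0.19 to 0.32 for Inhba, -0.54 to 0.97 for Inhbb, -0.0740 to 0.0237 for Acvr1b, -0.42 to 0.0534 for Acvr2b, -0.18 to 0.13 for Lin28b and -0.24 to 0.0340 for Trim71. Het against WT ranged from -0.17 to 0.14 for Inhba, -0.19 to 0.65 for Inhbb, -0.65 to 0.37 for Fstl3 and -0.0693 to 0.0270 for Acvr2a. Null against Het ranged from -0.19 to 0.31 for Inhba, -0.66 to 0.76 for Inhbb, -0.13 to 0.16 for Fst and -0.13 to 0.0921 for Hmga2. The log2 ratio of Fst to Inhba ranged from -0.23 to 0.50 (null against WT) and -0.46 to 0.27 (null against Het), and that of Acvr2a to Acvr2b from -0.30 to 0.0763 and -0.0320 to 0.35, while the ratio of Lin28b to Hmga2 kept its sign in all 3 comparisons.

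Pathway genes called between null and WT numbered 1, with 2 under the mesenchyme covariate (Cdk6 and Pmepa1), 1 in the 6 libraries, which was Mycn (Cdk6 kept a log2 value of 0.66 there, with an edgeR adjusted p of 0.0987), and 0 to 2 when a library was left out. Between Het and WT they numbered 0, with 3 without the filter (Fstl1, Prtg, Ccnd2), 2 with DESeq2 (Fstl1, Prtg), 1 without a fold threshold (Igf2bp1) and 0 to 3 with a library left out. Between null and Het they numbered 1, and 0 to 1 with a library left out. Over all genes, null against WT gave 476 without the filter, 609 with DESeq2, 468 with 9 libraries in one fit and 68 to 446 with a library left out. Het against WT gave 684, 298, 0 and 0 to 505 under these settings, 45 without a fold threshold, 11 with limma-voom, 10 with the covariate and 14 in the 6 libraries. Null against Het gave 366, 360, 164 and 12 to 182, with 266 under the covariate and 201 in the 6 libraries.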
